A study of Mus musculus with 8 samples.

Results

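The miRNAs described here are the mouse miRNAs numbered 5000 and above that were detected in plasma of drug-treated mice. They were chosen by name and by detection: a mouse entry on the array with a number of at least 5000, called detected by the scanner software on at least 2 of 8 arrays, leaving out miR-5100, miR-6354 and miR-7058-5p. That gave 121 members of the 782 mouse entries numbered 5000 and above, of 1881 mouse miRNAs on the array and of 400 detected on at least 2 arrays. Detection therefore chose the members, and the detection counts below are a description.

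The study measured circulating miRNAs in plasma by one-colour Agilent microarray in 3-month-old females of the outbred NMRI strain. The IMB group took imatinib, a tyrosine kinase inhibitor, in water by mouth at 100 mg/kg once a day for 9 days. The DOX group had doxorubicin, an anthracycline, in saline by tail vein in 4 doses of 3 mg/kg on alternate days. The CTRL group had only the solvents. Plasma of 3 mice was pooled for each array and RNA taken from 300 µl, giving 3 DOX, 3 IMB and 2 CTRL pools, which the labels call biological replicates. Pools show the spread between pools and hide the spread between mice.

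A miRNA is cut from a hairpin precursor that holds a 5p and a 3p arm, and one arm usually becomes the guide loaded into Argonaute. Pairing with target mRNAs rests mostly on the seed, bases 2 to 8 from the 5′ end. Names are given in order of discovery, so high numbers mark entries added late, many from deep sequencing. Some of these are mirtrons, short introns that fold into a hairpin after splicing without Drosha, and others have little evidence beyond a few reads.

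The mature sequences of the 10 members with the highest mean signal are shown because they carried most of the set's signal. They are printed 5′ to 3′ from RefSeq (GRCm38.p6) with the seed in capitals.
miR-5126: gCGGGCGGggccgggggcgggg
miR-6769b-5p: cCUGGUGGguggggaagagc
miR-8110: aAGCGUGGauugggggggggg
miR-6366: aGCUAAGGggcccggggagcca
miR-7036a-5p: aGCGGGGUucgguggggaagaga
miR-6931-5p: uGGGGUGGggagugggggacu
miR-7118-5p: uGGGGAAGgcgggagagggaac
miR-5128: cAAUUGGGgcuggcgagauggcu
miR-7015-5p: uCUGUGCAguaggcuguggguuc
miR-6538: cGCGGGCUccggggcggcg
The 10 seeds are all different. Guanine made up 77.3% of miR-5126 and 66.7% of miR-8110 and miR-6931-5p, but 39.1% of miR-7015-5p. In the RefSeq table, miR-5126 lies within the span of Dner, miR-6769b-5p of Unc13a, miR-7036a-5p of Srrt, miR-6931-5p of Dcakd, miR-7118-5p of Plxnb2, miR-5128 of Strbp, miR-7015-5p of Smap2 and miR-6538 of Rnf144a. Strand was not compared, and miR-8110 and miR-6366 lie within no protein-coding gene there.

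The members lay mostly on the 5p arm. Of 313 entries numbered 5000 and above with 5p in the name, 72 were members (23.0%), against 14 of 311 with 3p (4.5%) and 35 of 158 with no arm named (22.2%). Among miRNAs numbered below 1000 the detected shares were alike on both arms, 25.6% of 5p and 26.9% of 3p entries. Among those numbered from 1000 to below 5000 they were 19.4% and 13.0%. All 86 members with a named arm had the other arm on the array, and for 82 of them that other arm was detected on no array. The remaining 4 were both arms of miR-7241 and of miR-7666, and of the 72 5p members 70 had no detected 3p partner.

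The undetected 3p partners of bright 5p members are shown for contrast, again from RefSeq.
miR-7036a-3p: cCGUCCUCauccgcuccucccag
miR-6931-3p: cCCAACCUcuucauaccccag
miR-7118-3p: uAACUCUAcguccuccuccaca
miR-7015-3p: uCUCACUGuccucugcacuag
Their guanine shares were 13.0%, 4.76%, 4.55% and 14.3%. Of 62 5p members with both arms in the table, 60 had more guanine in the 5p arm, with a median of 49.0% against 13.6% in the 3p arm. Of 8 3p members with both arms in the table, 6 had more guanine in the 3p arm, and miR-6976-3p (4.76% against 39.1%) and miR-7022-3p (13.6% against 34.8%) had less. Among 180 hairpins numbered 5000 and above with neither arm detected, the 5p arm held more guanine in 146 (81.1%), so this lean to 5p was common without detection too.

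Over the whole set, of the 121 members 105 matched a RefSeq mature sequence, with a median guanine share of 47.6% (quartiles 39.1% and 54.2%), against 27.3% in 571 entries numbered 5000 and above that were detected on no array. For 175 detected miRNAs numbered below 1000 the median was 23.8%, and for 49 detected miRNAs numbered from 1000 to below 5000 it was 43.5% (quartiles 35.0% and 52.4%), near that of the members. A high guanine share was thus common to the detected miRNAs with later numbers. Within 5p entries the medians were 49.0% for members and 39.1% for undetected entries, within 3p entries 43.5% and 18.2%, and with no arm named 44.2% and 28.6%. Among entries numbered 5000 and above with a sequence, 3 of 204 with under 20% guanine were members (1.47%), 2 of 134 with 20 to under 30% (1.49%), 22 of 151 with 30 to under 40% (14.6%), 33 of 115 with 40 to under 50% (28.7%) and 45 of 80 with 50% or more (56.2%). A run of GGGG, searched on the RNA strand as printed, was in 45 of the 105 (42.9%), in 11.0% of the undetected high-numbered entries, in 11.4% of the detected miRNAs numbered below 1000, in 13 of 49 numbered from 1000 to below 5000 (26.5%) and in 188 of 1679 mature miRNAs in the table (11.2%). These are shares of sequences and no test was made. Whether guanine changes how a probe binds was not tested.

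**Figure D1:**
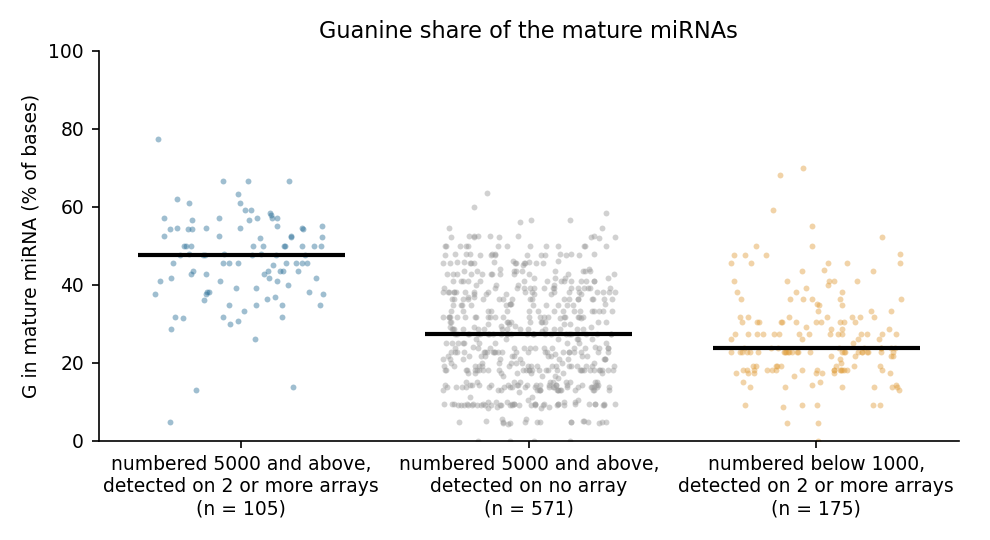
The vertical axis is the percentage of G in the mature miRNA, with 1 point per miRNA and a black line at each group's median. The 105 detected miRNAs numbered 5000 and above lie around 47.6%, the 571 undetected ones around 27.3% and the 175 detected ones numbered below 1000 around 23.8%.

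By the first digit of the number, 14 of 68 entries with 5, 45 of 321 with 6, 51 of 358 with 7, 11 of 31 with 8 and 0 of 4 with 9 were members. Of the 105 with a sequence, 85 lay within the span of a protein-coding gene (81.0%), against 85.8% of undetected high-numbered entries, 36 of 48 detected miRNAs numbered from 1000 to below 5000 and 53.1% of those numbered below 1000. Position inside a gene was therefore as common without detection as with it. For 5p members it was 61 of 64 (95.31%), near the shares of undetected high-numbered 5p entries (90.15%) and 3p entries (92.22%).

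The 105 sequences held 103 different seeds. A pair of members shared a seed in 2 cases, shown here with their sequences.
miR-8113: cAGGAGAGucaggggcaaguag
miR-8119: gAGGAGAGggagcuaggguc
miR-6965-5p: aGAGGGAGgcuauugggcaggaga
miR-7047-5p: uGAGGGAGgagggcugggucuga
A further 4 members carried the seed of a detected miRNA with a lower number. The seed of miR-6394 is that of the miR-125 family, a conserved family studied widely in blood cell formation, and the rest of the molecule differs.
miR-6394: uCCCUGAGuggggccaggucu
miR-125a-5p: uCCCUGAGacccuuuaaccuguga
miR-125b-5p: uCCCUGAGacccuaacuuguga
miR-7016-5p: cAGGGAGGggagcgagaguag
miR-149-3p: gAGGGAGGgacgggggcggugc
miR-7648-3p: aGGGCUGGgcccgggacgcgg
miR-762: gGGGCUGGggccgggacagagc
miR-6368: cUGGGAAGcaguggaggggag
miR-3547-5p: gUGGGAAGagggguggggcccggga
All the lower-numbered partners were detected on all 8 arrays. A shared seed says nothing of the signal, since each miRNA has its own probes.

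All values from here are log2 of the signal averaged over a miRNA's probes and scaled to the 75th percentile of each array, with a floor at 4.40. Array signal depends on the probe as well as on the RNA, so the order of brightness is not an order of abundance. The number of arrays limits the precision. Before scaling, the 75th percentile was 213 to 267 in DOX, 196 to 425 in IMB and 300 to 349 in CTRL pools. The 11 blood, liver and muscle miRNAs used as markers were detected on all 8 arrays, and the summed signal of the 4 red cell miRNAs was 14.13 to 14.72 in DOX, 14.96 to 15.30 in IMB and 14.46 to 15.20 in CTRL pools. The muscle markers differed widely: miR-1a-3p read 7.02, 5.04 and 5.04 in DOX and 6.86, 9.02 and 5.16 in IMB pools and lay at the floor in both CTRL pools. The other muscle marker, miR-133a-3p, lay at the floor in both CTRL pools and IMB pool 3 and reached 7.68 in IMB pool 2. The part of muscle or red cell RNA in the members' values was not tested.

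The number of members detected differed between arrays of 1 group as well as between groups. The DOX arrays detected 88, 95 and 90 of the 121, the IMB arrays 90, 119 and 107 and the CTRL arrays 97 and 116. IMB pool 1 had the lowest 75th percentile and IMB pool 2 the highest. All 8 arrays detected 82 members. On no DOX array were 23 members detected, on no CTRL array 3 and on no IMB array 0. The groups had 3 DOX, 2 CTRL and 3 IMB arrays, and detection on 2 arrays was enough for membership. No such count over all detected miRNAs is given here, so these numbers are not read as a trait of the members. Detected miRNAs numbered below 1000 ran from 172 to 210 of 211 over the same arrays.

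**Figure D2:**
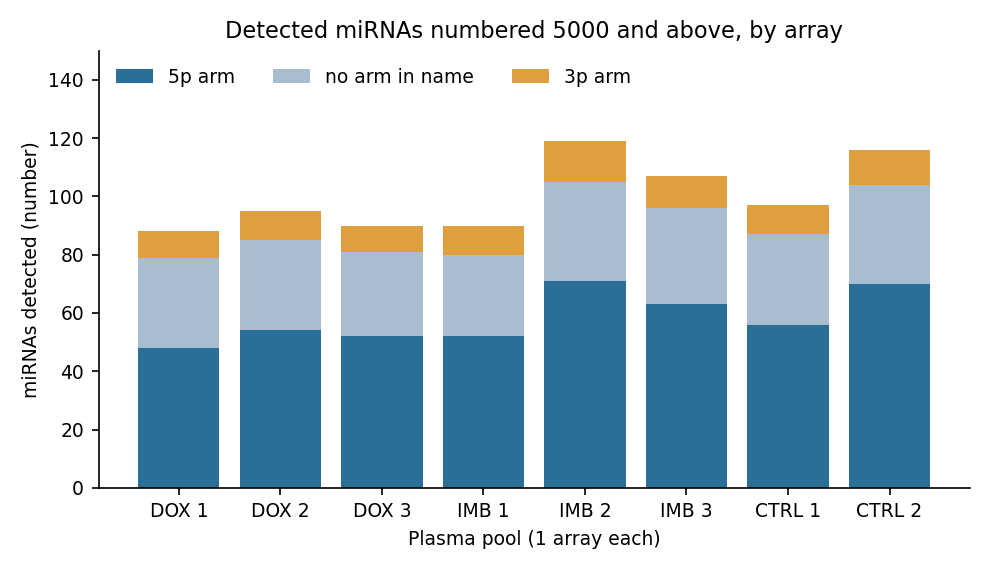
Bars give the number of members detected on each array, from 0, divided by the arm in the name. The counts run from 88 in DOX pool 1 to 119 in IMB pool 2, and the 5p arm makes up most of every bar.

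Signal was concentrated in few members. The members held 22.8% to 30.4% of the summed signal of detected mouse miRNAs on an array, 27.7%, 30.4% and 28.0% in DOX, 24.8%, 22.8% and 26.3% in IMB and 24.2% and 27.6% in CTRL pools. Of that, the 10 brightest members held 80.4% to 83.1% and the 4 brightest 60.1% to 67.2%. A share falls when another miRNA rises, and miR-451a, the main red cell miRNA, held 15.6% to 29.8% of all signal.

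The brightest member, miR-5126, read 12.79, 12.85 and 12.57 in DOX, 12.96, 12.20 and 12.33 in IMB and 12.73 and 12.52 in CTRL pools. The next, miR-6769b-5p, read 12.50, 12.67 and 12.04 in DOX, 12.32, 12.47 and 12.58 in IMB and 12.60 and 12.39 in CTRL pools. In both the groups overlapped, and the spread within a group was as large as the gap between group means. miR-8110 averaged 11.82 ± 0.14 (SD, n = 3) in DOX, 11.80 ± 0.40 (n = 3) in IMB and 11.73 ± 0.17 (n = 2) in CTRL pools. miR-7036a-5p averaged 10.35 ± 0.40, 10.51 ± 0.22 and 10.34 ± 0.14, and miR-7118-5p 9.53 ± 0.22, 9.80 ± 0.24 and 9.73 ± 0.15 in the same order. These 3 also overlapped between all groups. miR-6931-5p read 10.79, 10.55 and 10.49 in DOX, 10.73, 9.97 and 9.51 in IMB and 9.67 and 10.09 in CTRL pools. Its DOX pools lay above both CTRL pools, by 0.73 ± 0.37 (SE), without passing the limma test (adjusted p = 0.698).

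**Figure D3:**
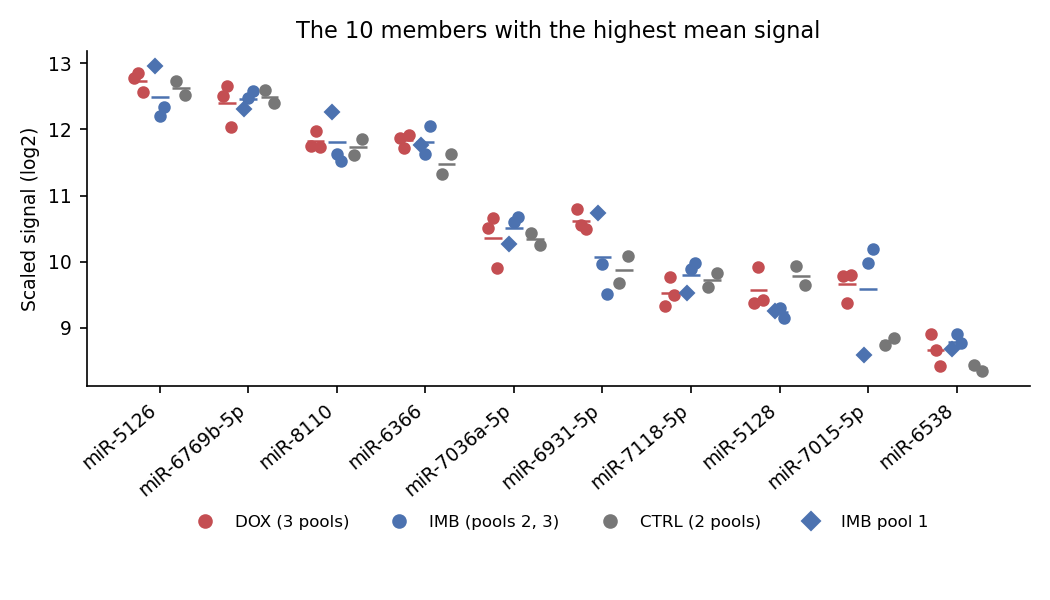
The vertical axis is the scaled signal (log2) of the 10 brightest members, with 1 point per pool, a short line at each group mean and a diamond for IMB pool 1. For miR-5126 and miR-6769b-5p the groups overlap, whereas IMB pool 1 lies near 8.59 for miR-7015-5p with the other IMB pools at 9.98 and 10.19.

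The remaining members above the floor on every array were dimmer. With a mean of 6 to under 8 came 23 members, miR-5119, miR-6392-3p, miR-5113, miR-6965-5p, miR-7018-5p, miR-7686-5p, miR-6984-5p, miR-7047-5p, miR-6944-5p, miR-7040-5p, miR-7687-5p, miR-6898-5p, miR-6987-5p, miR-7011-5p, miR-8090, miR-7235-5p, miR-5112, miR-6908-5p, miR-8101, miR-8105, miR-6368, miR-7045-5p and miR-7082-5p. With a mean under 6 came 29, miR-7005-5p, miR-5622-3p, miR-6394, miR-7002-5p, miR-6899-5p, miR-6938-5p, miR-6418-5p, miR-8109, miR-8100, miR-8102, miR-6937-5p, miR-7042-5p, miR-7050-5p, miR-6978-5p, miR-6973b-5p, miR-7033-5p, miR-7648-3p, miR-7046-5p, miR-6385, miR-7048-5p, miR-5107-5p, miR-7672-5p, miR-7216-5p, miR-7020-5p, miR-6915-5p, miR-6995-5p, miR-7241-3p, miR-5131 and miR-7088-5p. Over the 62 members above the floor on all arrays, highest and lowest pool differed by a median of 0.73 (0.26 to 1.61). Their median SD over the 8 arrays was 0.25 scaled and 0.45 unscaled, against 0.27 and 0.41 for 124 miRNAs numbered below 1000.

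At the floor on some arrays were 18 members, miR-5130, miR-6360, miR-6370, miR-6401, miR-6969-5p, miR-6991-5p, miR-7016-5p, miR-7022-3p, miR-7044-5p, miR-7052-5p, miR-7070-5p, miR-7211-3p, miR-7221-3p, miR-7222-3p, miR-7238-5p, miR-7666-3p, miR-8117 and miR-8119. At the floor on all arrays were 41, miR-5103, miR-5118, miR-5122, miR-5132-5p, miR-5620-3p, miR-6238, miR-6240, miR-6349, miR-6378, miR-6386, miR-6402, miR-6907-5p, miR-6946-5p, miR-6954-5p, miR-6961-5p, miR-6963-5p, miR-6970-5p, miR-6973a-5p, miR-6974-5p, miR-6976-3p, miR-6980-5p, miR-6990-5p, miR-6999-5p, miR-7007-5p, miR-7014-5p, miR-7026-5p, miR-7028-5p, miR-7031-5p, miR-7037-5p, miR-7039-5p, miR-7056-5p, miR-7075-5p, miR-7081-5p, miR-7218-5p, miR-7224-3p, miR-7241-5p, miR-7666-5p, miR-7668-3p, miR-7671-3p, miR-8099 and miR-8113. Detection by the software is more lenient than the floor, so a member can be detected and still have no level in the averaged signal. Of the 41, 6 passed the stricter spot rule on every array of at least 1 group. In these 6, 1 probe averaged above the floor and the other lay at it, so their average stayed at the floor. Just inside the rule, 11 members were detected on exactly 2 arrays, miR-5122, miR-6378, miR-6946-5p, miR-6974-5p, miR-6976-3p, miR-6980-5p, miR-6999-5p, miR-7026-5p, miR-7081-5p, miR-7218-5p and miR-7668-3p, with Agilent total gene signals of 0.85 to 2.38 (log2) where detected. Just outside it, miR-6236, miR-6943-3p, miR-6956-5p, miR-7009-5p and miR-7670-5p were detected on 1 array each, at 0.65 to 2.22. The 0.65, that of miR-7009-5p, is the floor set for that signal. The values on both sides of the cut overlapped. Of the hairpins with both arms detected, miR-7241-3p averaged 5.86 ± 0.09 in DOX, 5.80 ± 0.18 in IMB and 5.86 ± 0.04 in CTRL pools and miR-7666-3p 4.67 ± 0.12, 4.50 ± 0.10 and 4.50 ± 0.14, while both 5p arms stayed at the floor.

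Most members were read by 2 probes (116 members) or 3 (5 members), each with 10 to 15 spots. For 45 members at least 2 probes were well above background on all arrays, for 22 members 1 probe and for 54 none. Between the probes of the 45, mean signals differed by a median of 0.33 (0.00 to 3.38), and 11 of them (24.4%) differed by 1 or more, against a median of 0.67 and 35.0% over 140 detected miRNAs numbered below 5000. The widest gap was in miR-5128, whose probes averaged 6.99 and 10.37. miR-8105 followed with 5.37 and 8.59, and miR-7047-5p with 5.27 and 7.41. Probes assigned to 1 member thus differed widely in brightness, and whether the brighter probe also binds other RNA was not tested. For such members the brighter probe sets the average. Differences between groups were steadier: all probes of a member had the same sign in 50 of 56 members for IMB against CTRL, 48 of 56 for DOX against CTRL and 49 of 56 for IMB against DOX, against 149, 152 and 151 of 165 miRNAs numbered below 5000.

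Group differences were tested for the 80 members detected, by the stricter spot rule, on every array of at least 1 group, in a limma fit over 294 miRNAs with Benjamini-Hochberg adjustment. The other 41 had no test. Of the 80, 10 passed only through CTRL, none only through IMB or DOX, and 6 lay at the floor everywhere. IMB and DOX comparisons share the CTRL pools.

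After imatinib no member passed the test against solvent. The count was 0 of 80 at an adjusted p under 0.05, where 3 of 294 miRNAs were called (1.02%), and at an unadjusted p under 0.05 it was 4 members (5%) against 7.82% of all tested. The groups did not overlap for 12 members (15%), 9 higher and 3 lower, against 17.7% of all tested (10.9% higher and 6.8% lower). The median difference was 0.06 in the members and 0.01 in all, and no member differed by 1 log2 unit or more. The smallest adjusted p was 0.205.

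The members given here had the smallest p among those whose IMB and CTRL pools did not overlap, and some overlapping members had a smaller p. miR-7044-5p read 4.59, 4.52 and 4.51 in IMB and 4.40 and 4.43 in CTRL pools, a difference of 0.13 ± 0.03 (SE, limma adjusted p = 0.205). miR-5130 read 4.62, 4.68 and 4.57 in IMB and 4.40 and 4.46 in CTRL pools, a difference of 0.20 ± 0.05 (limma adjusted p = 0.256). Both lie at or just above the floor, with CTRL pool 1 at the floor for each, so their differences from CTRL depend on the floor. For each, 1 probe was well above background on all arrays and the other on none. miR-6538 averaged 8.79 ± 0.12 in IMB and 8.39 ± 0.06 in CTRL pools, miR-7050-5p 5.42 ± 0.03 and 5.23 ± 0.04, and miR-7020-5p 5.79 ± 0.11 and 5.62 ± 0.05. On the lower side, miR-5128 read 9.25, 9.29 and 9.15 in IMB against 9.93 and 9.64 in CTRL pools, a difference of -0.56 ± 0.19 (limma adjusted p = 0.467). miR-7040-5p averaged 6.58 ± 0.31 against 7.07 ± 0.10 and miR-7082-5p 7.87 ± 0.05 against 7.95 ± 0.05. In each of these 8 the IMB and CTRL pools did not overlap, and none passed the test.

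After doxorubicin again no member passed. The count was 0 of 80, where 1 of 294 miRNAs was called (0.34%), and 4 members (5%) had an unadjusted p under 0.05 against 8.5% of all tested. The groups did not overlap for 20 members (25%), 15 higher and 5 lower, against 28.6% of all tested (18.7% higher and 9.86% lower). The median difference was 0.01 in the members and 0.00 in all, and the smallest adjusted p was 0.199.

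On the higher side, miR-5130 read 4.64, 4.78 and 4.67 in DOX pools, all above the CTRL pools, a difference of 0.27 ± 0.05 (limma adjusted p = 0.199). Its CTRL pool 1 lay at the floor, so that difference depends on the floor. miR-5119 read 6.41, 6.25 and 6.25 in DOX and 5.78 and 5.90 in CTRL pools, a difference of 0.47 ± 0.13 (limma adjusted p = 0.312). miR-7033-5p averaged 5.56 ± 0.11 in DOX and 5.30 ± 0.08 in CTRL pools, miR-7020-5p 5.93 ± 0.17 and 5.62 ± 0.05, and miR-6366 11.84 ± 0.10 and 11.48 ± 0.22. Of these 5, only miR-5119 kept the same sign when arrays were not scaled. On the lower side, miR-7047-5p read 6.28, 6.44 and 6.51 in DOX and 6.86 and 6.66 in CTRL pools, a difference of -0.35 ± 0.17 (limma adjusted p = 0.675). miR-6937-5p read 4.89, 4.97 and 4.95 against 5.53 and 5.12, a difference of -0.39 ± 0.19 (limma adjusted p = 0.698). miR-6418-5p averaged 4.98 ± 0.20 in DOX and 5.34 ± 0.23 in CTRL pools, miR-7011-5p 7.04 ± 0.16 and 7.25 ± 0.02, and miR-6401 4.41 ± 0.02, with DOX pools 1 and 3 at the floor, and 4.49 ± 0.04. These 10 were chosen among members whose DOX and CTRL pools did not overlap, and none passed the test.

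Between the drugs the count was 0 of 80, where 3 of 294 miRNAs were called (1.02%), and 4 members (5%) had an unadjusted p under 0.05 against 10.9% of all tested. The groups did not overlap for 6 members (7.5%), 3 higher and 3 lower in IMB, against 15% of all tested (6.8% higher and 8.16% lower). Median differences were 0.00 in the members and in all. The smallest adjusted p of any comparison, 0.0717, was that of miR-7044-5p, whose DOX pools all lay at the floor of 4.40, so that its difference of 0.14 ± 0.02 depends on the floor. miR-7047-5p was higher in IMB pools (7.22, 6.95 and 6.69) than in DOX pools by 0.54 ± 0.15 (limma adjusted p = 0.246), with no overlap. miR-6937-5p was higher in IMB pools (5.70, 5.35 and 5.15) by 0.46 ± 0.17 (limma adjusted p = 0.385). miR-5119 was lower in IMB pools (6.13, 5.74 and 5.82), a difference of -0.41 ± 0.12 (limma adjusted p = 0.258). miR-7082-5p read 7.81, 7.90 and 7.89 in IMB and 7.99, 8.12 and 7.90 in DOX pools, which meet to 2 decimals, and miR-5128 averaged 9.23 ± 0.07 and 9.57 ± 0.31. These 6 made up all members whose IMB and DOX pools did not overlap.

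Tested probe by probe over 547 probes, 0 of 139 member probes passed in each comparison, where 0.731%, 0.366% and 1.46% of all probes were called for IMB against CTRL, DOX against CTRL and IMB against DOX. At an unadjusted p under 0.05 the limma counts were 3, 5 and 13 member probes, against 8.59%, 8.78% and 13.7% of all probes.

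IMB pool 1 lay apart from the other IMB pools for several members. Before scaling, IMB pool 2 exceeded IMB pool 1 by a median of 1.21 over the 62 members and by 0.88 over miRNAs numbered below 1000, and after scaling by 0.09 and -0.24. IMB pool 1 was the highest or lowest of all pools for 28 of the 62 (45.2%), about as often as for miRNAs numbered below 1000 (58 of 124, 46.8%) or from 1000 to below 5000 (16 of 33, 48.5%). Without it, limma called 4 of 80 members for IMB against CTRL, where 12 of 294 miRNAs were called (4.08%), and 5 of 80 for IMB against DOX, where 20 of 294 were called (6.8%). For DOX against CTRL the count stayed at 0, where 2 of 294 were called (0.68%). This fit had only 2 IMB pools left and, like the fit with all pools, assumes the groups share a spread.

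miR-7015-5p, which lies within the span of Smap2, read 8.59 in IMB pool 1 and 9.98 and 10.19 in the other IMB pools, against 8.74 and 8.84 in CTRL and 9.79, 9.38 and 9.80 in DOX pools. With all pools its difference from CTRL was 0.80 ± 0.49 (limma adjusted p = 0.758) and without IMB pool 1 it was 1.30 ± 0.18 (limma adjusted p = 0.0406). miR-6394, with the miR-125 seed, read 4.41 in IMB pool 1, 5.27 and 5.20 in the others, 4.64 and 4.83 in CTRL and 4.88, 4.86 and 4.79 in DOX pools. Its difference from CTRL went from 0.23 ± 0.27 to 0.50 ± 0.07 (limma adjusted p = 0.0406). miR-6401 lay at the floor in IMB pool 1 and read 4.74 and 4.81 in the others, 4.52 and 4.47 in CTRL and 4.43 in DOX pool 2. Its difference without IMB pool 1 was 0.28 ± 0.03 from CTRL (limma adjusted p = 0.0350). No size is given against DOX, where pools 1 and 3 lay at the floor, although that difference was among the 5 calls. These 3 were named because they were called without IMB pool 1, and in each that pool lay below the other IMB pools. Over the 62 members that pool was the lowest of all for 14 and the highest for 14.

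miR-6899-5p ran the other way, with 5.52 in IMB pool 1, 4.50 and 4.61 in the others, 5.01, 5.15 and 4.90 in DOX and 4.75 and 4.74 in CTRL pools. Without IMB pool 1 it was lower in IMB than in DOX, with a difference of -0.47 ± 0.08 (limma adjusted p = 0.0487). In the same comparison miR-5119 was lower, with a difference of -0.52 ± 0.07 (limma adjusted p = 0.0400). miR-6394 was higher by 0.39 ± 0.07 (limma adjusted p = 0.0487) and miR-7044-5p was also called, with all DOX pools at the floor and so with no size given. miR-7044-5p differed from CTRL, with CTRL pool 1 at the floor, by 0.10 ± 0.02 in that fit (limma adjusted p = 0.0406). These calls rest on leaving out IMB pool 1. That pool lay in slide row 1 and IMB pools 2 and 3 in row 2, so within IMB the pool and the row cannot be told apart. Why that pool differed was not tested.

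**Figure D4:**
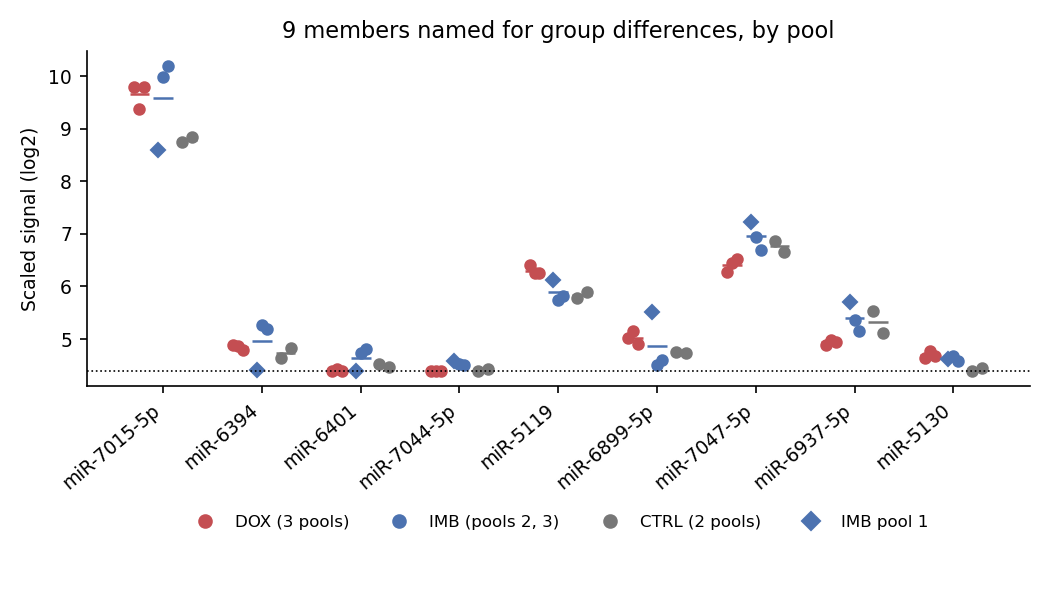
The vertical axis is the scaled signal (log2) of 9 members, with 1 point per pool, a short line at each group mean, a diamond for IMB pool 1 and a dotted line at the floor of 4.40. For miR-7015-5p and miR-6394 the diamond lies below the other IMB pools, and for miR-6899-5p it lies above them.

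A member with no level in the averaged signal had DOX pools apart from all others when its probes were read alone, and it was picked after its values were seen. miR-5132-5p was detected on 0 of 3 DOX, 3 of 3 IMB and 2 of 2 CTRL arrays, the only member on every array of both other groups and on no DOX array. In RefSeq its hairpin lies within the span of Irak1, an interleukin-1 receptor-associated kinase gene. Its mature sequence, and that of its undetected 3p partner, are given from RefSeq.
miR-5132-5p: gCGUGGGGugguggacucagg
miR-5132-3p: cUGAUGUUccccaucccgcag
On the linear scale, its brighter probe read 9.28, 10.7 and 8.99 in DOX, 25.8, 28.1 and 29.2 in IMB and 22.6 and 25.4 in CTRL pools. The DOX pools lay well apart from the rest, and the dimmer probe, at -0.32 to 2.41, showed no signal in any pool. The measured ratio of the geometric means was 2.87 for IMB over DOX and 2.49 for CTRL over DOX. Because the probe was well above background on 0 of 3 DOX arrays, the DOX level is a bound. It was taken per array as the lowest signal among probes well above background, and not below the floor. By geometric means, the probe was at least 1.03-fold brighter in CTRL pools than that bound. In CTRL it was well above background on 2 of 2 arrays. The bound of DOX pool 1 lay above both CTRL readings, so this does not hold pool by pool. The probe was well above background on only 2 of 3 IMB arrays, so no such bound is given for IMB.

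Averaging both probes put miR-5132-5p below the floor on all arrays, so its difference there was 0.00. With a floor 4 times lower it read 2.40, 2.62 and 2.40 in DOX, 3.74, 3.86 and 3.85 in IMB and 3.65 and 3.69 in CTRL pools. DOX pools 1 and 3 lay at that lower floor. Agilent's total gene signal (log2) was scaled and given a floor of its own, 0.65. All 3 DOX pools lay at that floor, against 2.43, 2.54 and 2.61 in IMB and 2.28 and 2.45 in CTRL pools. The authors' deposited table gives -3.20, -3.25 and -3.23 for DOX, near the values it enters for undetected miRNAs, and 2.23 to 2.60 elsewhere. In each of these the DOX entries are limits rather than levels, so no size or p is given. The member was chosen for this pattern and entered the fit only through CTRL, so its calls under these settings support nothing further. With normexp background correction, which adds an offset, IMB minus DOX was -0.02 ± 0.17 (SE) and the sign of DOX minus CTRL was positive, at 0.15 ± 0.19. By slide row, the brighter probe read 9.28 and 10.7 in DOX, 25.8 in IMB and 22.6 in CTRL pools of row 1, and 8.99 in DOX, 28.1 and 29.2 in IMB and 25.4 in CTRL pools of row 2.

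**Figure D5:**
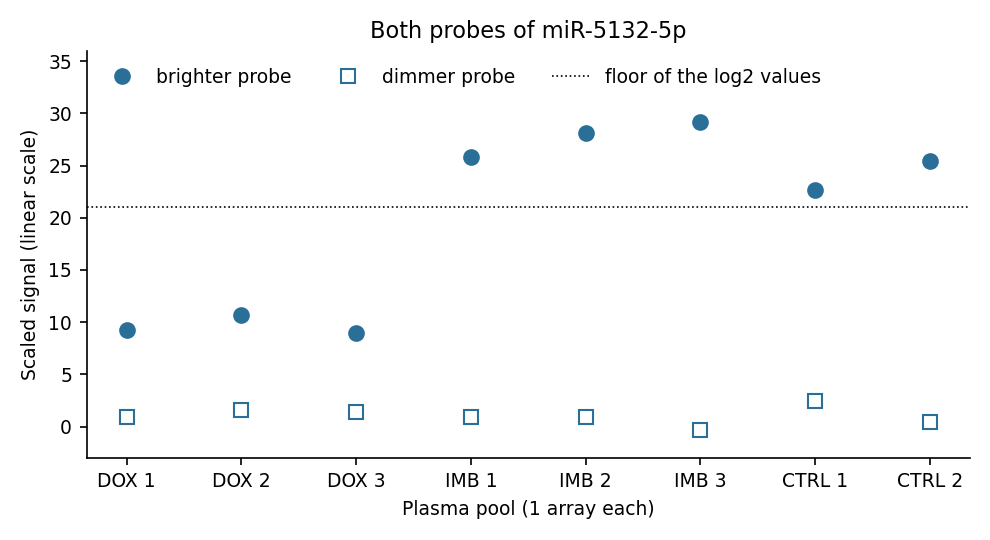
The vertical axis is the scaled signal on the linear scale for both probes of miR-5132-5p in the 8 pools, with a dotted line at the floor of 21.1. The brighter probe lies at 8.99 to 10.7 in the DOX pools and at 22.6 to 29.2 in the IMB and CTRL pools, and the dimmer probe lies near 0 in all.

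Other members with a group fully detected and another not at all were miR-6240, on 0 DOX, 1 IMB and 2 CTRL arrays, and miR-6961-5p and miR-6969-5p, each on 0 DOX, 2 IMB and 2 CTRL arrays. No member showed the reverse, detection on all DOX arrays and none of another group. The share of such patterns over all detected miRNAs is not given here, so they are not read as particular to the members.

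The 3 miRNAs left out by the rule had the following levels. miR-5100 read 11.84, 11.00 and 11.08 in DOX, 11.19, 12.17 and 11.73 in IMB and 10.40 and 10.14 in CTRL pools. miR-6354 ran from 4.40 to 5.20 in DOX and CTRL pools and from 5.66 to 6.54 in IMB pools. miR-7058-5p read 5.51, 6.17 and 5.81 in DOX, 6.82, 7.23 and 7.18 in IMB and 4.84 and 4.53 in CTRL pools. Leaving them out took high-numbered miRNAs with larger group differences out of the set. The counts of 0 above thus hold only for the 80 members tested. They do not cover the 41 members without a test or every miRNA numbered 5000 and above.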

How the data were processed

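Plasma RNA was measured on 8 one-colour Agilent arrays on 1 slide, in 2 rows of 4 that each held all groups. What the authors deposited per array is the scanner output, with a linear intensity for each spot. Per the submitters' processing notes it comes from Agilent Feature Extraction 11.5.1.1, and background was already subtracted from the processed signal, per the file headers. The deposited table of the authors holds log2 values whose scale and normalization are not given in the sources used here; it served only for comparison.

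The mean processed signal of each probe's non-outlier spots was scaled to each array's 75th percentile over 454 probes detected on all arrays, averaged over a miRNA's probes, floored at 21.1 (the log2 value 4.40) and put on the log2 scale. A probe counted as detected where over 50% of its spots were well above background. Group differences came from a limma fit (version 3.58.1, R 4.3.3) over all 8 arrays and 294 miRNAs (residual degrees of freedom 5, prior 0.605), with Benjamini-Hochberg adjustment at 0.05. The fit was checked on simulated data with known changes larger than any difference seen in the members. That check does not show how smaller changes are recovered. The software's own detection call, which is more lenient, chose the members.

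The members and lists were chosen with earlier results of these data known. Named were the 10 brightest members, per comparison up to 5 per direction with the smallest p among members whose groups did not overlap, members detected on exactly 2 arrays, both-arm members, shared seeds and the 3 widest probe gaps. miR-5132-5p, and members called without IMB pool 1, were added afterwards. Deviations of same-numbered pools had correlations of -0.24 to 0.40, with 2 of 7 above 0.1. With 2 or 3 pools per group these values cannot decide whether the numbers mark pairs. The numbers were not taken as pairs, and no 2 arrays of 28 pairs held identical values. Sequences came from RefSeq (GRCm38.p6), in which 105 members matched. No coordinates are given, since the file headers name another build (mm9).

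Alternatives were Agilent's total gene signal, normexp (offset 50), other scalings, filters and floors, the median of probes, the replicate number or slide row as a block, the authors' table, only the groups compared, and each array left out. A filter blind to group with the lower floor was added after seeing the data.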

Additional observations from a re-analysis of the deposited data

Results flagged for a closer look

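miR-7044-5p was picked out because every IMB pool lay above the CTRL mean and every DOX pool below it. Its difference was 0.13 ± 0.03 (SE) for IMB against CTRL and -0.02 ± 0.03 for DOX against CTRL. IMB against DOX, which is the test of that difference, gave 0.14 (limma adjusted p = 0.0717, range 0.0234 to 0.771 over the alternatives) and did not pass. All 3 DOX pools and CTRL pool 1 lay at the floor, and only 1 of its probes was well above background. With normexp background correction the sign of IMB against DOX turned, to -0.11.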

How the results depend on the processing

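Over 24 alternatives, of 576 values for named differences 563 kept their direction and side of the threshold. Part of this was fixed by the choice of members whose groups did not overlap. Their sign cannot turn when an array is left out, and a changed filter alone leaves the difference as it was. Counts of called members stayed at 0 except as follows. DOX against CTRL gave 1 with Agilent's total gene signal, a lower floor, the group-blind filter with lower floor and the authors' deposited table, each time miR-5132-5p, whose DOX values there lie at or near a floor. IMB against DOX gave 1 with those 4 and with the 75th percentile over all probes, again miR-5132-5p, and 1 with the median of probes, miR-5119 (-0.42, limma adjusted p = 0.0378). Leaving out arrays gave 0 to 4 members for IMB against CTRL, 0 to 0 for DOX against CTRL and 0 to 5 for IMB against DOX, and IMB pool 1 decided the highest values.

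Over all 294 miRNAs, the 3 calls of IMB against CTRL became 1 with Agilent's signal, normexp, the 75th percentile over all probes, the lower floor or the authors' table and 0 with median scaling, no scaling or no filter (0 to 12 leaving out arrays). The 1 call of DOX against CTRL became 2 with Agilent's signal, the lower floor alone or with the group-blind filter, or the authors' table and 0 with no filter or only the groups compared (0 to 2). The 3 calls of IMB against DOX became 5 with Agilent's signal, the 75th percentile over all probes or the lower floor, 6 with the group-blind filter and lower floor and 7 with the median of probes (3 to 20). With the replicate number as a block, which may not pair these pools, 0 members were called in each comparison and 0 miRNAs for DOX against CTRL.

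Without scaling, the median difference of members was -0.31 for DOX against CTRL and 0.27 for IMB against DOX, beside -0.31 and 0.24 over all miRNAs. The sign then turned for DOX against CTRL in miR-5130 (-0.094), miR-7033-5p (-0.15), miR-7020-5p (-0.11) and miR-6366 (-0.064), and for IMB against DOX in miR-7082-5p (0.17). With normexp it turned in miR-6937-5p (0.058), miR-6418-5p (0.044) and miR-6401 (0.17) for DOX against CTRL and in miR-7044-5p (-0.11) for IMB against DOX. The causes were not tested. The members number 126, 99 or 82 when detected on at least 1, at least 4 or all 8 arrays, and 89 by the stricter spot rule. Signal near background limits the 41 members at the floor, for which the averaged signal gives no difference.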
